A study of Mus musculus with 2 samples.

Results

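The genes described here are the abundant long intergenic non-coding RNAs (lincRNAs) of the mouse left cerebral cortex, 108 of the 55536 annotated genes. A gene was taken as a lincRNA when at least 1 of its annotated transcripts is of that type and none is protein-coding, which 6053 genes fulfil. From these, 6046 remained after the imprinted Meg3 cluster, structured RNAs and a few other genes were left out by name, and the 108 had 5 TPM or more in each library, TPM being a share of the library's transcripts that corrects for length. That is 1.79% of the lincRNA genes tested for this level. The members were thus selected on their TPM in these libraries, and their levels are given as a description.

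Total RNA was sequenced from female mice aged 25 days, first-generation hybrids of C57BL/6 and CAST (strain label B6CASTF1/J), with 300 ng of RNA per library and ERCC spike-ins. There is 1 group of 2 untreated libraries, replicates 1 and 2, with 31191535 and 27079700 expected counts on annotated genes. The labels give each library its own animal number but the same donor identifier, so they were treated as 2 animals. Should both come from 1 animal, their differences are between libraries and not between animals. With no contrast and 1 library per animal, no p-value can be given. The labelled sex matched the data, as 4 Y-linked genes summed to 0 and 0.01 TPM. For the tissue, the excitatory neuron transporter Slc17a7 had 595.6 and 639.2 TPM. Markers of other brain parts were present too: striatal ones summed to 378 and 255 TPM, choroid plexus and ependymal ones to 102 and 9.1. Pairs of values are replicate 1, then replicate 2.

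Most lincRNAs are capped and spliced transcripts that are not translated. Some act as RNA themselves, as scaffolds of nuclear bodies or as binding platforms for proteins and microRNAs. Others are known mainly as the precursors from which microRNAs or small nucleolar RNAs (snoRNAs) are cut. Several of them are enriched in brain and tied to neuronal differentiation.

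The members include transcripts whose best-known feature is a sequence, shown here from the GENCODE M21 transcripts on mm10 and written 5′ to 3′. 2900097C17Rik, which RefSeq calls Norad, is known for binding Pumilio proteins through repeats of TGTANATA. Miat, a nuclear neuronal transcript, is known for repeats of TACTAAC, a sequence that splicing factors bind. 1700020I14Rik, which RefSeq calls Oip5os1 and which is also known as Cyrano, carries a site extensively paired with miR-7. C230004F18Rik, RefSeq's Cdr1os, spans the locus from which the miR-7-binding circular RNA Cdr1as arises. Capitals mark the motif in each stretch, and in the microRNA the seed (bases 2 to 8), whose match in a target reads GTCTTCC.
2900097C17Rik, chr2:156390425-156390544, minus strand: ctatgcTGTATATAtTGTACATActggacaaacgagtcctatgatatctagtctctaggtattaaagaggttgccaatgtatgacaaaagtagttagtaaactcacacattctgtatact
Miat, chr5:112216689-112216808, minus strand: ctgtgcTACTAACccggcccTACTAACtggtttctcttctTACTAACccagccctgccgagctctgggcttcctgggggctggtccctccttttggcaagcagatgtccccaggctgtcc
C230004F18Rik, chrX:61183465-61183584, plus strand: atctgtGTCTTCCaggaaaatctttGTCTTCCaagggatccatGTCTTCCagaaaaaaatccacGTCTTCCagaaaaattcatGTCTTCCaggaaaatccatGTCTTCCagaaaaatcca
1700020I14Rik site 1, chr2:119599945-119599971, plus strand: ttcaggttttttttttaatGTCTTCCa
1700020I14Rik site 2, chr2:119602135-119602161, plus strand: gaacaacaaaatcaccaatGTCTTCCa
mmu-miR-7a-5p: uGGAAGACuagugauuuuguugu

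The microRNA hosts among the members carry families with shared seeds, and the mature sequences most tied to brain are shown, from RefSeq on GRCm38.p6, with the seed in capitals. miR-9 is a regulator of neural progenitors, miR-137 of neuronal maturation, and let-7 and miR-125b mark differentiated cells.
mmu-miR-9-5p: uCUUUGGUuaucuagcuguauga
mmu-miR-100-5p: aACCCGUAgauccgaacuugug
mmu-miR-99a-5p: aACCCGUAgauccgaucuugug
mmu-miR-125b-5p: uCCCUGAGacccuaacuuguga
mmu-let-7b-5p: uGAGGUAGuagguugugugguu
mmu-let-7c-5p: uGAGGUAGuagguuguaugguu
mmu-miR-137-3p: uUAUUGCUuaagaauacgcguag

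Malat1, a nuclear speckle RNA, dominated the members. It lies at chr19:5795690-5802672 on the minus strand and had a TPM of 5306 and 6591 (5948 ± 909, SD, n = 2), from 364326 and 390132 expected counts. It made up 59.5% and 61.8% of the summed TPM of all members. Of the genes left out by name, Gm26917 was higher than Malat1, with 11334 and 13287.5 TPM. Rmrp (3127 and 2720 TPM), Gm42418 (2061 and 2278) and Meg3 (1205 and 1528) lay between Malat1 and the next member. C230004F18Rik (Cdr1os; chrX:61116378-61292484, plus strand) followed with 702 and 785 TPM (744 ± 59.1, SD, n = 2). Norad (chr2:156388065-156392979, minus strand, a single exon) had 516 and 541 TPM (529 ± 17.05, SD, n = 2). Those 3 genes together held 73.2% and 74.3% of member TPM, and their order was the same in both animals with no overlap between neighbours.

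Behind them the levels fell steeply. Bc1, a short brain-specific RNA made by RNA polymerase III and carried into dendrites, had 231 and 275 TPM from only 331 and 331 expected counts, since it is 168 nt long. Oip5os1 had 146 and 157 TPM. Mir124a-1hg, a host of the neuronal microRNA miR-124, had 113 and 149.74 TPM, so its range overlapped that of Oip5os1. Gm3764, the host of Mir9-1, had 98.4 and 122 TPM and Miat 82.7 and 122 TPM, also overlapping each other. Xist, which coats the inactive X chromosome, had 72.9 and 89.95 TPM, and Gas5, a snoRNA host linked to growth arrest, had 81.6 and 80.4 TPM. Gm3764 and Miat each lay above Xist and Gas5 in both animals, although the range of Miat overlapped that of Xist. Gas5 lay within the range of Xist. These levels are alignment-based, and the order was another in the quantification made directly from FASTQ files. There the mean TPM was 182 for Gm3764, 160 for Gas5, 141 for Miat and 106 for Xist.

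**Figure D1:**
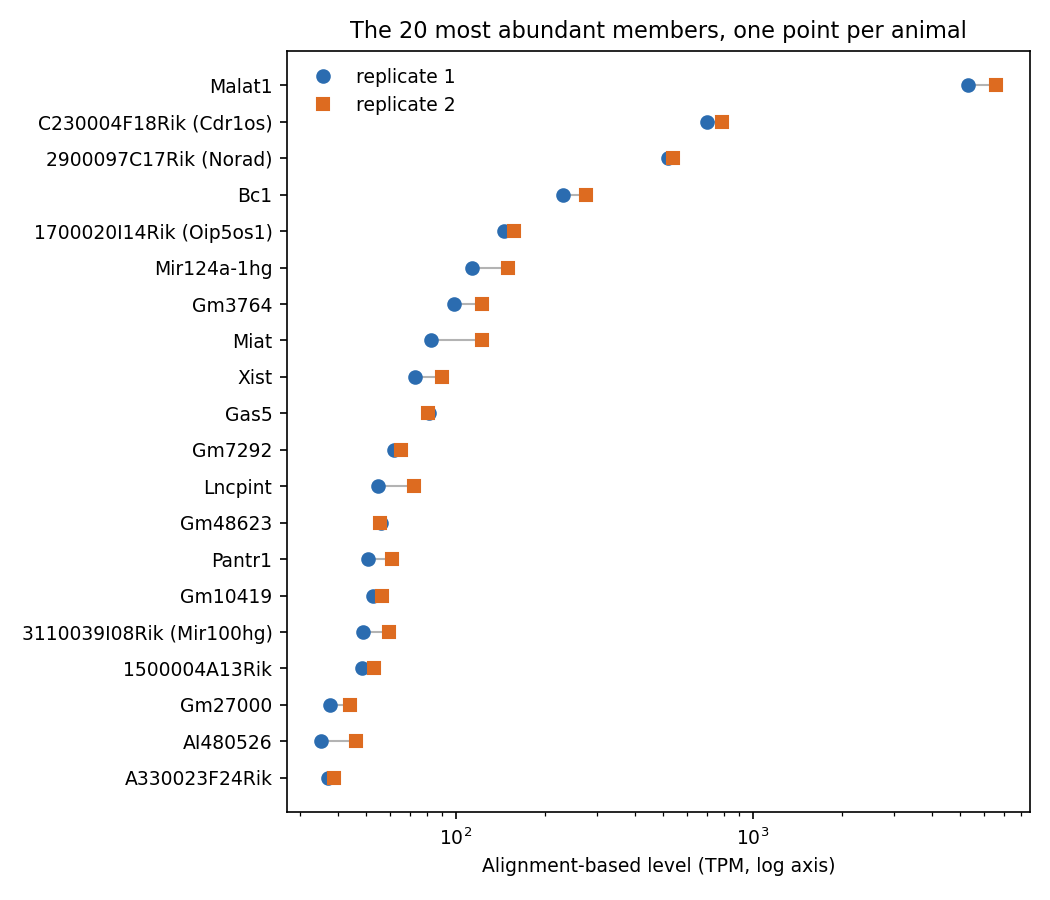
Alignment-based TPM (log axis) of the 20 most abundant members, with a circle for replicate 1 and a square for replicate 2 joined by a line. Malat1 stands at 5306 and 6591 TPM, C230004F18Rik and 2900097C17Rik lie between 516 and 785 TPM, and the remaining genes lie at or below 275 TPM.

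Most members were far lower. The median member had 11.8 and 13.55 TPM, and 42 and 37 members lay under 10 TPM. Only 6 and 8 members reached 100 TPM. The members held 0.897% and 1.07% of all annotated TPM but 90.3% and 90.5% of the TPM of the 6046 lincRNA genes. Of the 5938 lincRNA genes below the minimum, 61.4% had no count in either library, where a count of 0 allows up to 0.0962 and 0.111 CPM (counts relative to library size). In these bulk samples, fewer cells of a type and less RNA per cell cannot be told apart.

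The minimum fell within a continuous range of levels. Just inside it were AC102496.1 with 5.1 and 6.39 TPM, 2610035D17Rik with 5.1 and 5.39, and Gm16701 with 5.49 and 5.6. Just outside were B830012L14Rik with 4.89 and 7.22 TPM, Gm17322 with 4.82 and 5.77, and Gm27019 with 4.73 and 5.25. Gm27019 rested on only 30 and 28 counts.

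The nuclear-body RNAs ranged widely in level. Besides Malat1, Miat and Xist, Neat1, the scaffold of paraspeckles, had 13.4 and 14.9 TPM, although it lies 22035 bp from Malat1 on the same strand. Neat1 is made as a short and a long form that share their 5′ part. The 3004 nt transcript Neat1-202 was assigned 79.3% and 81.9% of the gene's TPM, and the 20771 nt Neat1-201, the form that builds paraspeckles, 17.5% and 18.1%. By expected counts the long form was ahead, with 1007 and 970 against 640 and 618, because TPM divides by length. Firre, which is in the same role list but has another annotation class and is therefore no member, had 15.3 and 17.3 TPM. Transcripts of the proteins that assemble these bodies were present, while the proteins were not measured. All 10 paraspeckle and speckle protein genes listed exceeded 1 TPM, from Rbm14 with 26.1 and 24.3 to Srrm2 with 252 and 311.

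The X inactivation centre was represented by Xist, Ftx and Jpx. Jpx, an activator of Xist transcribed away from it, had 8.43 and 10.61 TPM, and Ftx, a neighbour on the Xist strand, had 14.6 and 17.2. Xist exceeded both severalfold in each animal. Tsix, the antisense repressor of Xist and no member, had 0.3 and 0.2 TPM. Xist-201, the 17946 nt form, held 80.6% and 84.4% of Xist TPM. The Xist-binding silencing factor Spen had 26.5 and 28.1 TPM and Hnrnpu, which anchors Xist to chromatin, 169.96 and 188.

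The motifs shown above were counted in all lincRNA genes. The search covered the longest annotated transcript of each gene, sense strand only, with overlapping matches allowed. Norad held 11 matches to TGTANATA in 4915 nt, the most of all lincRNA genes, followed by Gm7292 with 9 in 2527 nt. Gm7292 was itself abundant, with 62.1 and 65.6 TPM. Over all members there were 0.241 such matches per kb, against 0.118 in the lincRNA genes below the minimum and 0.120 in protein-coding genes. At least 1 match was present in 40.7% of members, 13.7% of the lincRNA genes below the minimum and 27.2% of protein-coding genes. The transcripts searched had a median length of 2870.5 nt in members and 2882 nt in protein-coding genes. Below the minimum they were shorter, with a median of 992.5 nt. Pum2, which encodes a Pumilio protein, had 80.6 and 86.5 TPM.

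Miat held 6 matches to TACTAAC in 9163 nt, 3 of them in the 120 bases shown above. No lincRNA gene had more, and AC154442.1, which lies below the TPM minimum, had as many. The motif was rare elsewhere: 7.41% of members, 3.72% of lincRNA genes below the minimum and 7.44% of protein-coding genes held 1 or more. The Miat-201 transcript, with the same 6 matches in 8758 nt, held 70.2% and 68.2% of Miat TPM. Of the genes for proteins known to bind such sequences, Qk had 169 and 185 TPM, Sf1 84.9 and 84.0, and Celf3 72.5 and 79.9.

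C230004F18Rik carried 125 miR-7 seed matches in its longest transcript, C230004F18Rik-210 (19658 nt). Of these, 123 lay within 2832 bases of its last exon, at chrX:61183273-61186104, a density of 43.4 per kb with a median spacing of 18 nt. The limits of that cluster were set after the sites were seen. The long transcript held only 1.20% and 1.19% of the gene's TPM. The transcript that led, C230004F18Rik-206 (3354 nt, 7 exons), held 88.6% and 87.2%, and it contains 123 matches between its bases 363 and 3194. By expected counts, C230004F18Rik-206 received 42127 and 38966 of the gene's 46775 and 43381. The deposited tables hold no separate entry for the circular RNA of this locus, and reads of a circle and of a linear transcript with the same exon cannot be told apart in them, so no value is given for the circle. The gene Cdr1 is annotated on the opposite strand, and how the counting treated strand is not given in the sources used here.

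**Figure D2:**
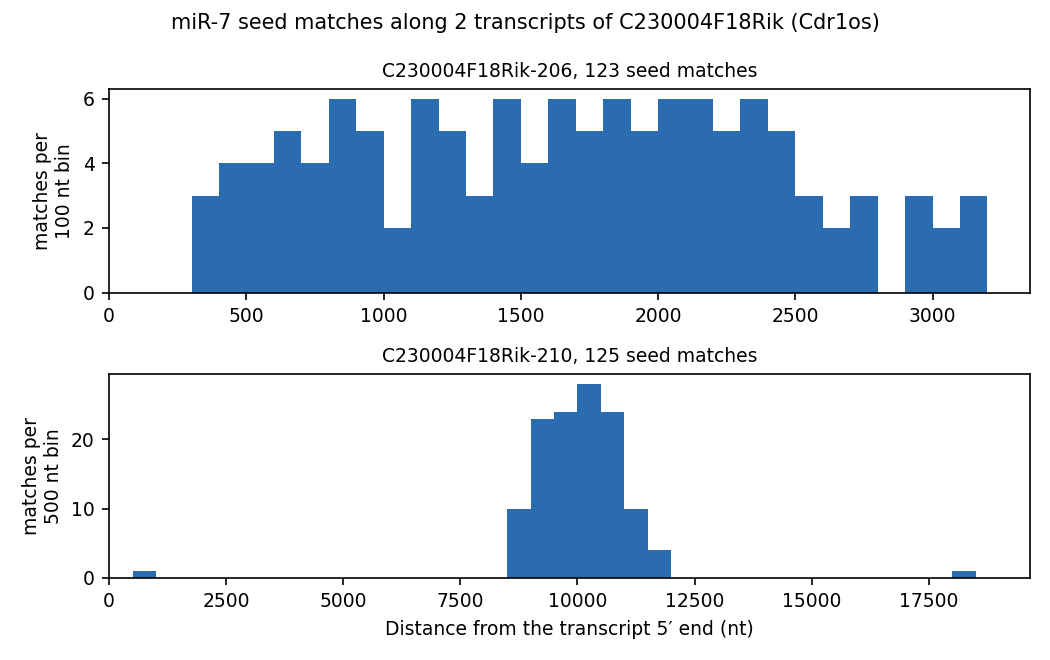
Number of miR-7 seed matches by distance from the transcript 5′ end (nt), in 100 nt bins for C230004F18Rik-206 and 500 nt bins for C230004F18Rik-210. The 123 matches of the shorter transcript fill nearly its whole length, whereas in the longer one they form 1 block with 2 matches outside it.

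Oip5os1 held 2 miR-7 seed matches in 8300 nt, both shown above. Upstream of its seed match, site 2 pairs with 13 further bases of miR-7a-5p in 1 run (bases 11 to 23 of the microRNA), while the longest such run at site 1 is 3 bases (14 to 16). Among the members, 28 held at least 1 miR-7 seed match (25.9%), against 11.4% of lincRNA genes below the minimum and 26.6% of protein-coding genes. After C230004F18Rik the next highest member was Xist with 4. 1700020I14Rik-202, which carries both sites, held 81.2% and 79.3% of Oip5os1 TPM.

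MicroRNA hosts made up 23 of the 108 members (21.3%), against 0.876% of the lincRNA genes below the minimum. A host is counted where an annotated microRNA gene lies in its span on the same strand. All 3 genes for miR-9 lay in members: Mir9-1 in Gm3764, Mir9-2 in C130071C03Rik with 28.2 and 33.4 TPM, and Mir9-3 in Mir9-3hg with 25.2 and 34.3 TPM. Gm3764 was the highest of the 3 in both animals, and the ranges of the other two overlapped. Both listed miR-124 hosts were members too, with Mir124-2hg at 31.6 and 38.3 TPM.

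The seeds of miR-100 and miR-99a, and that of miR-125b, were each present in both 3110039I08Rik (RefSeq Mir100hg) and Mir99ahg, which are clusters of the same make-up on chromosomes 9 and 16. Their levels differed: Mir100hg had 48.7 and 59.5 TPM and Mir99ahg 7.18 and 10.4. let-7 genes lay in 3 members: Mirlet7a-2 in Mir100hg, Mirlet7c-1 in Mir99ahg, and Mirlet7b with Mirlet7c-2 in Lncppara, which had 10.4 and 12.9 TPM. A330023F24Rik, the host of miR-29b-2 and miR-29c, had 37.1 and 39.1 TPM. Dleu2, the host of miR-15a and miR-16-1, had 11.97 and 14.03. Gm26871, the host of miR-137, had 21.7 and 28.7. Levels are those of the host transcripts, and the mature microRNAs were not measured by these libraries.

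Of the 11 microRNA hosts on the role list, 6 were members, and 8 exceeded 1 TPM. Hosts tied to blood cells were near absent: Mir142hg had 0 and 0 TPM and Mir155hg 0 and 0.05. Mir17hg, the host of a proliferation cluster, had 0.24 and 0.27 TPM.

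snoRNA hosts accounted for 12 members (11.1%) against 0.573% of the lincRNA genes below the minimum. Gas5 spans 8 differently named snoRNA genes, Snhg1 spans 8 and Snhg12 spans 4. In 1 of the 12, 2900076A07Rik, the only entry of snoRNA type carries a microRNA name, Mir1839. Apart from Gas5, their alignment-based levels ran from AC121821.1 with 7.94 and 6.83 TPM to Snhg20 with 16.9 and 20.99. The FASTQ-based order was another, with a mean of 283 TPM for AC121821.1, 105 for Snhg20, 32.5 for Snhg1 and 13.8 for Snhg8. Snhg8 had 18.2 and 16.6 TPM, Snhg12 16.3 and 19.9, Snhg6 15.8 and 15.7, Snhg1 9.38 and 10.66, and Snhg5 9.17 and 12.8. AC121821.1 matched the RefSeq gene Snhg4 by position. On the role list of 19 such hosts, 16 were matched by name and 7 of these were members, not counting Snhg4. Snhg11, which has another annotation class, was far higher with 283 and 379 TPM.

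Transcripts that keep an intron are annotated in 7 of the 12 snoRNA hosts, and their share of the alignment-based level differed widely. Retained-intron transcripts took 42.9% and 41.1% of Gas5 TPM, 36.3% and 60.7% of Snhg1, 69.5% and 48.99% of Snhg5, 59.3% and 51.8% of 1110038B12Rik, 58.4% and 53.4% of AC121821.1, and 84.02% and 100% of AA465934. In Snhg8 they took only 4.398% and 5.804%. In Snhg1 (158 and 150 expected counts) and Snhg5 (149 and 167) the alignment-based share moved in opposite directions between the animals. In the FASTQ-based table the retained-intron share was lower in replicate 2 in both genes. There the retained-intron transcript Snhg1-213 held 62.8% and 49.1% of Snhg1 TPM, against 5.55% and 0% from alignment. Of protein-coding TPM, a figure for the class and not for single genes, retained-intron transcripts took 8.36% and 9.38%. Only 22 members have such a transcript annotated, with a median share of 20.5% and 24.6% of TPM. In 5 of the 22 it held at least 50% of TPM in both animals.

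Among transcripts tied to neural development, Pantr1, which neighbours the upper-layer transcription factor gene Pou3f3, had 50.5 and 60.9 TPM. Rmst, a partner of the stem cell factor SOX2 and host of Mir135a-2, had 17.8 and 15.9. Sox2ot, no member because of its annotation class, had 11.5 and 14.3. Of 15 genes on that list, 14 were matched, 5 were members and 11 exceeded 1 TPM, with a median of 55.7 TPM over the 5 members. Among broadly expressed regulators, Lncpint, a p53 target, had 54.6 and 72.5 TPM, Pvt1, a neighbour of Myc, had 10.6 and 12.4, and 1810026B05Rik (RefSeq Chaserr), a regulator of its neighbour Chd2, had 19.6 and 16.9.

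By annotation, the longest transcript of a member had a median of 2870.5 nt, against 992.5 nt below the minimum, and 76.9% against 27.1% had at least 2 annotated transcripts. Single-exon genes were also more frequent, 15.7% against 5.04%. The median distance to the nearest protein-coding start was 35610 bp for members and 69808 bp below the minimum. Annotation depends in part on how much of a transcript was seen in earlier work, and its part in these differences was not tested.

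**Figure D3:**
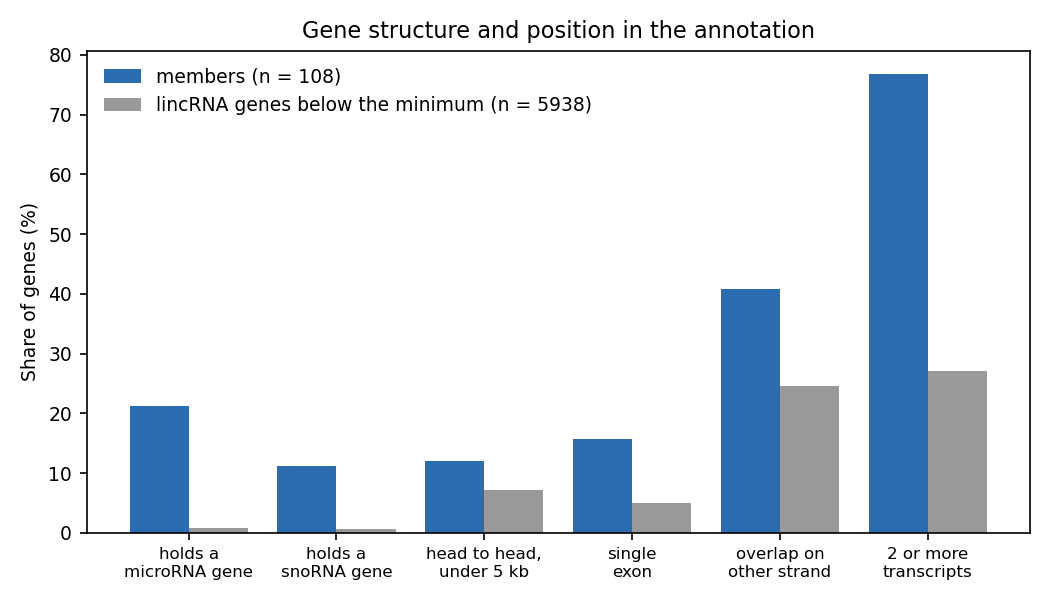
Share of genes (%) with each feature in the annotation, for the 108 members and the 5938 lincRNA genes below the minimum. MicroRNA hosts make up 21.3% of members against 0.876%, and snoRNA hosts 11.1% against 0.573%.

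Head-to-head pairs, in which a lincRNA and a protein-coding gene start within 5 kb of each other and are transcribed apart, numbered 13 among members (12.04%) against 7.09% below the minimum. The lincRNA was lower than its neighbour in both animals in 9 of the 13 pairs and higher in 4. The 4 higher ones were Pantr1 beside Pou3f3 (25.1 and 28.9 TPM), 1500004A13Rik (48.2 and 53.2 TPM) beside Gon4l (20.07 and 21.8), AI480526 (35.1 and 46.3 TPM) beside the histone methyltransferase gene Setd1b (13.98 and 16.2), and AA465934 (9.63 and 8.05 TPM) beside Slfn14 (0.03 and 0). The lower ones included 5031425E22Rik with 14.6 and 18.8 TPM beside the chromatin regulator gene Kmt2e with 42.95 and 46.5. Snhg1 lay 106 bp from Slc3a2, which encodes an amino acid transporter subunit and had 64.5 and 69.6 TPM.

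The closest pairs started 48 bp apart: 9030407P20Rik with Mosmo, and 4930570G19Rik with Negr1, a neuronal adhesion gene. 4930570G19Rik had 12.3 and 14.6 TPM and Negr1 105.5 and 97.4. The window around these starts, from the RefSeq promoter table on GRCm38.p6 at chr3:156561638-156561937, minus strand, is shown as that of the closest pair with an entry. Capitals mark each CpG, of which there are 38 in 300 bases, against a median of 7 over 32851 promoter windows of that length. The windows that hold both starts of Snhg1 with Slc3a2 and of Gm5113 with Zfp146 have 25 and 20.
4930570G19Rik and Negr1: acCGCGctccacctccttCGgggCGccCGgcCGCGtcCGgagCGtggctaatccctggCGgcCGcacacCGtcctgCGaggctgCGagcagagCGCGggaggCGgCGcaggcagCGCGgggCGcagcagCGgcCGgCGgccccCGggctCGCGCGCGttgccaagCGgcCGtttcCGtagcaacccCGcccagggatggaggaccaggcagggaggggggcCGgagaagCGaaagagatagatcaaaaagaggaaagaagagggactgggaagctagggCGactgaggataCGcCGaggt

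Some members lay near each other, and no such count was made for other genes. Within 100 kb there were 11 pairs, 7 of them on the same strand, involving 18 members. Besides Malat1 with Neat1 and the X inactivation centre, they included Lncpint with 2210408F21Rik on the opposite strand (16.2 and 18.3 TPM), and 3 genes on chromosome 7 whose nearest protein-coding start is that of Ndn. Of these, A230057D06Rik (10.3 and 12.9 TPM) and A330076H08Rik (11.6 and 15.2 TPM) both host miR-344 genes and lie 1446 bp apart, and B230209E15Rik had 26.9 and 26.7 TPM. Gm9916 lies within the span of the miR-137 host Gm26871, on the same strand.

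Most members differed little between the animals. After scaling of the alignment-based expected counts by TMM, 57 of 108 differed by less than 1.1-fold, and the largest difference was 1.59-fold. The count of 57 has no counterpart for other genes, so it shows no trait particular to the members. Quartiles of the log2 ratio, replicate 2 over replicate 1, were -0.03 and 0.20 over members. They were -0.12 and 0.12 over all genes at a mean CPM of at least 1. Only 1 member was at least 1.5-fold higher in replicate 1 and 1 in replicate 2, against 1.81% and 3.44% of the 15682 genes at a mean CPM of at least 1. Members needed 5 TPM in both libraries, and protein-coding genes within their range of CPM gave 1.23% and 0.884%, near the 0.926% of members in each direction. The member higher in replicate 2 was Gm9916, with 169 and 239 counts, 1.59-fold (1.30 to 1.94). Here and below the brackets give an exact 95% interval of the count ratio, which covers counting error only. Its overlapping host Gm26871 had 473 and 548 counts, 1.30-fold (1.15 to 1.47), in the same direction. The member higher in replicate 1 was Gm9989, with 111 and 63 counts, 1.57-fold (1.14 to 2.17).

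Below that size, members leaned toward replicate 2. Over members, the log2 ratio (replicate 2 over replicate 1) had a median of 0.09, with 71 of 108 above 0, against -0.03 over protein-coding genes and -0.02 over all genes. The lincRNA genes below the TPM minimum that passed 1 CPM had a median of 0.17, and 12.4% of those 241 genes were at least 1.5-fold higher in replicate 2, against 0.830% in replicate 1. Since a library has no replicate here, this lean was not tested. The count interval excluded a ratio of 1 in 34 members higher in replicate 2 and 5 higher in replicate 1, and included it in 69. The same numbers were not computed for other genes, so these show no trait particular to the members.

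Of the 20 most abundant members, Miat showed the widest difference, with 11141 and 13643 counts, 1.37-fold higher in replicate 2 (1.34 to 1.41). Malat1 was 1.20-fold (1.20 to 1.21), Xist 1.21-fold (1.19 to 1.23), Mir124a-1hg 1.23-fold (1.18 to 1.27) and Lncpint 1.30-fold (1.19 to 1.42) higher there. Mir99ahg, on fewer counts, was 1.39-fold higher (1.17 to 1.64). In the other direction, Norad was 1.07-fold (1.06 to 1.09) and Dbpht2 1.15-fold (1.09 to 1.21) higher in replicate 1. Oip5os1 was level, at 1.00-fold (0.98 to 1.02).

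MicroRNA hosts had a median log2 ratio of 0.14, with 19 of 23 above 0, from -0.28 in AC121821.1 to 0.47 in Mir99ahg. snoRNA hosts had a median of 0.02, with 7 of 12 above 0. The difference between these classes was not tested, and 3 genes belong to both.

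Other measures moved between the animals as well. The summed TPM of 5 myelinating oligodendrocyte markers was 1328 and 2097, of 6 striatal markers 378 and 255, of 5 neuronal activity genes 257 and 134, and of 4 choroid plexus and ependymal markers 102 and 9.1, with all measured myelin markers higher and all measured striatal and activity genes lower in replicate 2. The 5 excitatory neuron markers summed to 741 and 819 TPM, all higher in replicate 2. The 5 inhibitory neuron markers summed to 511 and 454 TPM and the 3 erythroid markers to 444 and 334, all lower in replicate 2, and the retained-intron share of protein-coding TPM was 8.36% and 9.38%. The part of any of these in the lean of the members was not tested.

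**Figure D4:**
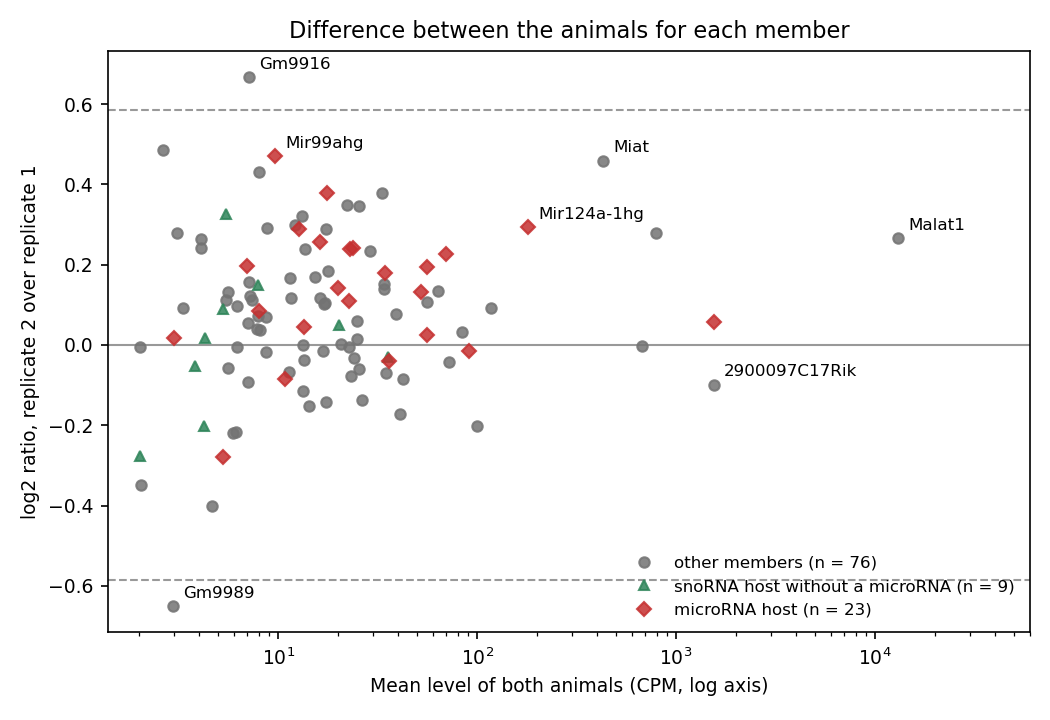
Log2 ratio of replicate 2 over replicate 1 against the mean CPM of both animals (log axis) for the 108 members, with microRNA hosts as diamonds, snoRNA hosts without a microRNA as triangles and the rest as circles; dashed lines mark 1.5-fold. Gm9916 and Gm9989 lie just past the lines, and 71 points lie above 0.

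Most members are made as several transcripts. Of the 83 with at least 2 annotated, 38 had 1 transcript with at least 50% of the gene's TPM in both animals, against a background of 61.8% of 9590 genes at the same TPM minimum. Taking for each gene the transcript with the highest mean share over both animals, the lowest shares were 16.2% and 10.7% in Mir99ahg (17 transcripts, of which others were higher in each single animal), 16.3% and 18.2% in Lncpint (16), 17.7% and 19.2% in Mir100hg (48), 19.98% and 18.3% in Dleu2 (15), and 20.7% and 18.7% in Jpx (11). The same transcript led in both animals in 70 of the 83 genes, and in both quantifications in 50. These 2 counts were not made for other genes, so they show no trait particular to the members.

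Malat1 shows how far such shares can depend on the quantification. The alignment-based table assigned 44.0% and 45.4% of its TPM to the 6983 nt Malat1-201 and most of the rest to spliced forms of 485 to 656 nt. The FASTQ-based table assigned 99.9% to Malat1-201 in both animals. By expected counts Malat1-201 already held 334182 of 364326 and 359693 of 390132. Since short transcripts weigh more per count in TPM, the gene's FASTQ-based TPM was lower, 3701 and 4493, although its FASTQ-based count was 1.08-fold higher in each animal.

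Gene counts from the 2 quantifications otherwise matched closely, with a median ratio of FASTQ-based over alignment-based counts of 1.06 and 1.08 over members, and 1.06 and 1.08 over protein-coding genes. In both animals, 6 members (5.56%) were at least 1.5-fold higher from FASTQ, against 2.7% of 15663 genes. Another 7 (6.48%) were lower, against 3.08%. Both shares were thus larger among members, a difference that was not tested. Of the 7 lower ones, 6 are under 500 nt by the expression-weighted length in the alignment-based table, a class of 8 members. Bc1 and Gm10076 were listed at 0 in the FASTQ-based table, so the level of Bc1 rests on the alignment alone. Gm39469 had 62 and 55 expected counts against 7 and 14.

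The highest ratios were in AC121821.1, at 10.7 and 10.2 (177 and 130 expected counts against 1889 and 1324), Gm43305, at 7.15 and 7.003 (1176 and 1105 against 8406 and 7741), and Gm46430, at 2.58 and 2.69. AC121821.1 overlaps the annotated gene Gm28285 on the same strand, so its counts may be divided between them in either table, and its level is uncertain. Gm27000 had a ratio of 0.786 in replicate 1 and 3.25 in replicate 2. In all, 29 members share part of their span with another gene on the same strand and 44 with one on the opposite strand.

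**Figure D5:**
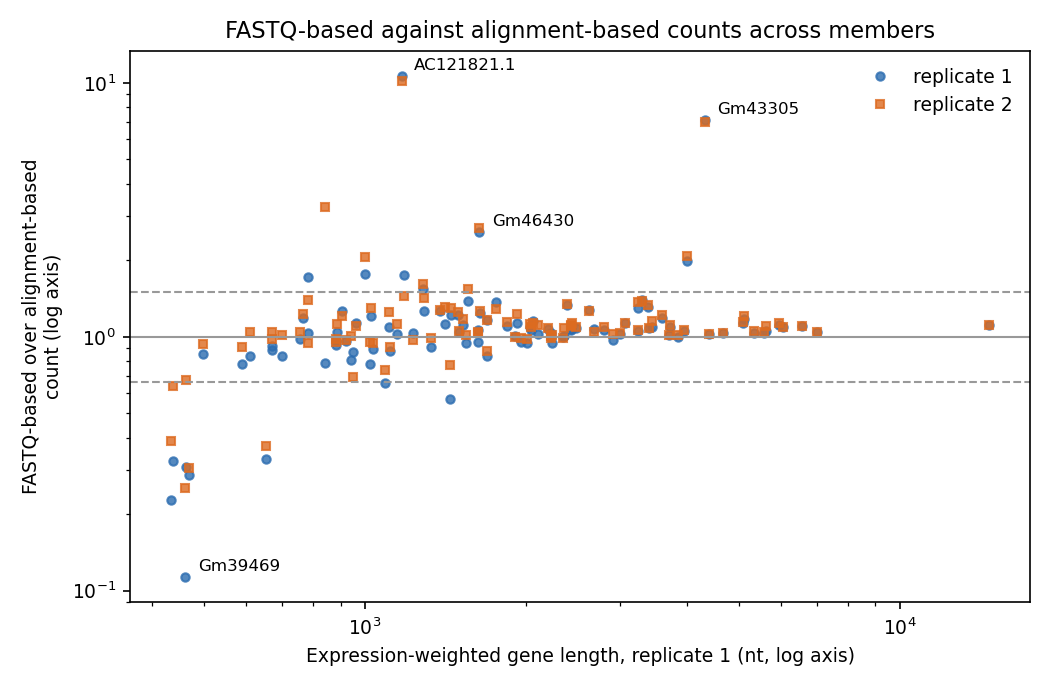
FASTQ-based over alignment-based count of each member (log axis) against the expression-weighted gene length of replicate 1 in nt (log axis), with a circle for replicate 1 and a square for replicate 2; dashed lines mark 1.5-fold either way, and the 2 members listed at 0 are not drawn. Most ratios lie near 1, AC121821.1, Gm43305 and Gm46430 lie highest in replicate 1, and the members under 500 nt lie below 1.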

How the data were processed

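The 2 libraries form 1 group. Per the accompanying README text, the authors quantified them on mm10 with GENCODE M21, from alignments and directly from FASTQ files. Tool names: not given in the sources used here. Alignment-based tables, as deposited, hold an expected count, TPM and FPKM per gene and transcript, TPM credibility bounds (a signal range), and each transcript's percent of its gene's TPM. The deposited FASTQ-based tables hold an estimated count and TPM per transcript, summed per gene here.

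Expected counts were rounded and scaled with TMM factors of 0.987 and 1.01 (edgeR 4.0.16, R 4.3.3); DESeq2 1.42.0 size factors were an alternative. Ratios between animals and between quantifications were described by size, 1.5-fold at a mean CPM of at least 1, with exact Clopper-Pearson 95% intervals, which cover counting error only; the reads carry no molecular identifiers. A count of 0 allows up to 3 counts. The ratio and interval steps were tested on simulated data. Python 3.11.15, pandas 2.3.3 and scipy 1.17.1 did the rest.

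Members and lists were chosen with earlier results of these data known. Named are the 20 most abundant members, those on the role lists, those past 1.5-fold between animals, the 3 highest and lowest quantification ratios, the 3 on each side of the minimum, the 5 with the lowest leading transcript share, and microRNA hosts. Other genes (head-to-head pairs, members near each other, retained-intron examples, Gm7292, Dbpht2, Chaserr) were chosen after their values were seen. Alternatives were another TPM minimum, table, scaling, fold, pseudocount and window, and each library alone. RefSeq symbols or synonyms matched 79 of 108 members.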

Additional observations from a re-analysis of the deposited data

How the results depend on the processing

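The number of members was 226 at a TPM minimum of 2, 63 at 10 and 255 with FASTQ-based TPM, which kept 104 of the 108 and added 151 genes; FASTQ-based TPM ran 1.55 and 1.52-fold above alignment-based TPM over protein-coding genes. With each library alone it was 114 and 128. The median member TPM, 12.9 over both animals, was 22.4 with FASTQ-based TPM, 8.44 in FPKM, 5.32 at a minimum of 2 and 20.4 at 10, and from 11.805 to 13.55 with 1 library left out. The members' share of lincRNA TPM, 90.4%, was 95.3% of expected counts and 69.6% of FASTQ-based TPM. Members at least 1.5-fold higher in replicate 1 numbered 0 with FASTQ-based counts, a fold of 2 or a pseudocount of 1 CPM, and 3 at a lower fold. Those higher in replicate 2 numbered 3 with FASTQ-based counts, 10 at a lower fold, and 0 at 2-fold or with the pseudocount. Gm9916 and Gm9989 both fell short of 1.5-fold with FASTQ-based counts, at log2 ratios of 0.53 and -0.42. The 3 called there were thus other members than Gm9916. Gm27000 had a log2 ratio of 2.14 and Gm48623 of 0.98 with FASTQ-based counts, against 0.14 and -0.11 with alignment-based counts. The median log2 ratio stayed above 0 under all alternatives run, from 0.06 (FASTQ-based counts) to 0.12 (total scaling, where the median of protein-coding genes was 0.01). Members whose quantifications differed at least 1.5-fold, 13 by counts, numbered 62 by TPM. Members with a transcript at 80% or more numbered 14. FASTQ-based TPM moved the level of all 54 named members beyond the spread between animals, and FASTQ-based counts moved the ratio between animals by over 0.25 on the log2 scale in 5 of them and by less in 47. No paired analysis was possible because the libraries form 1 group. Members with few counts, such as Gm49678 with 70 and 49, carry the widest counting intervals.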
